A study of Rattus norvegicus with 9 samples.

Results

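The urea cycle and the handling of ammonia were examined through 9 genes in the livers of rats with acute-on-chronic liver failure (ACLF). The genes belong to a set of 10 taken by symbol from the deposited tables of 32883 genes, where each symbol had 1 row. They comprise 5 enzymes of the cycle and its activation (Nags, Cps1, Otc, Ass1 and Asl), the mitochondrial carriers Slc25a15 and Slc25a13, and the glutaminase Gls2 with the glutamate dehydrogenase Glud1. All 9 were among the 14089 genes tested, and their counts per library ranged from 354 for Otc to 121167 for Cps1.

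Ammonia is toxic to the brain, and the liver clears it by building urea. Inside the mitochondrion, carbamoyl phosphate is made from ammonia and bicarbonate and joined to ornithine, and the citrulline so formed passes through further steps in the cytosol that end in urea. The cycle runs mainly in hepatocytes around the portal tract, while those around the central vein capture the remaining ammonia as glutamine. Loss of this capacity and the ammonia that follows are a known part of hepatic encephalopathy in liver failure.

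Bulk RNA was sequenced from whole liver of male Sprague-Dawley rats, which were 8 to 11 weeks old when obtained, with 3 biological replicates in each of 3 groups. The Normal rats are described only as normal. ACLF rats had the common bile duct ligated for 21 days, then received 0.25 mg/kg of lipopolysaccharide (LPS), and 1 h later they were connected to an extracorporeal blood circuit for 2 h. The circuit held neither cells nor adsorbent in the Empty group. For the UTOpiA group it held alginate capsules of human hepatocyte-like organoids, derived from induced pluripotent stem cells, together with cellulose acetate beads for granulocyte-monocyte apheresis (GMA). Liver was sampled 24 h after LPS from those ACLF rats that were alive at that time, which limits the groups to survivors. The Empty circuit lacked both the cells and the beads, so the 2 components cannot be told apart here.

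The libraries held 14241172 to 17321677 counts. Albumin (Alb) alone took 13.3% to 14.9% of all counts in a Normal library and 1.54% to 3.91% in an ACLF library, and the TMM factors that correct for such shifts ranged from 0.803 to 1.32. Of 10 hepatocyte markers, 3 (Alb, Ttr and Apoa1) were lower and 2 (Hpx and Fgb) higher in Empty than in Normal livers at an adjusted p under 0.05 and a change above 2-fold. Their summed TPM (a level scaled by gene length and library) was 175400 to 193700 in Normal, 87020 to 106700 in Empty and 98760 to 125200 in UTOpiA livers. In bulk tissue, fewer hepatocytes and less RNA per hepatocyte cannot be told apart. The summed TPM of 8 cholangiocyte markers was 15.8 to 25.6 in Normal, 361 to 752 in Empty and 148 to 499 in UTOpiA livers. That of 8 neutrophil markers was 2.598 to 8.553, 201 to 1112 and 178 to 512, with Mpo at or near 0 throughout. That of the 7 stellate cell and fibroblast markers found in the table was 105 to 116, 855 to 1054 and 449 to 1023. All 7 tested cholangiocyte markers, 5 of 6 tested neutrophil markers and 6 of 7 stellate cell and fibroblast markers were called higher than Normal in both ACLF groups. Of the others, 5 of 8 macrophage, 2 of 4 T and B cell and 3 of 4 erythroid markers were called higher, and 1 erythroid and 1 of 5 endothelial markers lower, in Empty livers. Over all genes tested, 20.7% were called higher in Empty livers and 18.2% in UTOpiA livers, and 11.1% and 6.81% lower. The part of these markers in the results on the urea cycle was not tested.

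Between Empty and Normal livers, 6 of the 9 genes were lower at an adjusted p under 0.05 and a change above 2-fold (edgeR), and none was higher. Over all genes tested, 11.1% were lower by the same rule. Without the fold threshold 7 of the 9 were lower, against 21.5% of all genes. The median log2 fold change was -1.57 for the 9 genes and 0.04 for all genes tested. The genes called were Nags, Cps1, Otc, Ass1, Slc25a13 and Gls2, Glud1 fell by less than 2-fold, and Asl and Slc25a15 did not pass the test. In UTOpiA livers 4 of the 9 were lower than in Normal livers (Cps1, Otc, Ass1 and Slc25a13), against 6.81% of all genes, and 5 without the fold threshold (Nags in addition), against 16.2%. Their median log2 fold change was -1.13, against 0.05 for all genes. Both comparisons use the same 3 Normal livers.

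**Figure D1:**
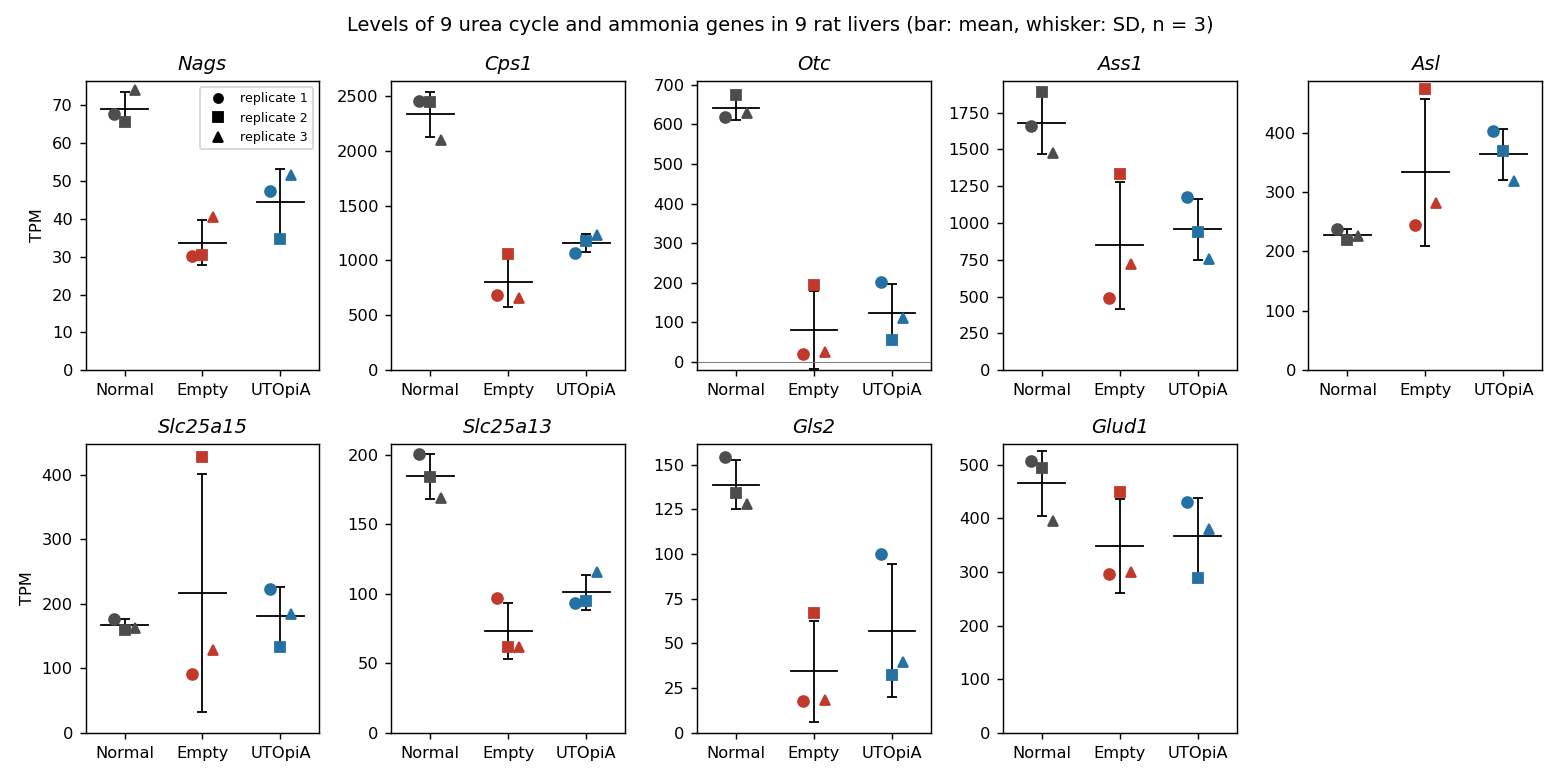
TPM of the 9 genes in each liver (y axis, from 0 except where the SD reaches below it) by group (x axis), with replicates as symbols and the mean and SD of 3 livers as bars and whiskers. Cps1 lay between 2097 and 2455 in Normal livers and between 661 and 1236 in the 6 ACLF livers, whereas Asl lay at 219 to 238 in Normal livers and at 245 to 473 in ACLF livers.

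**Figure D2:**
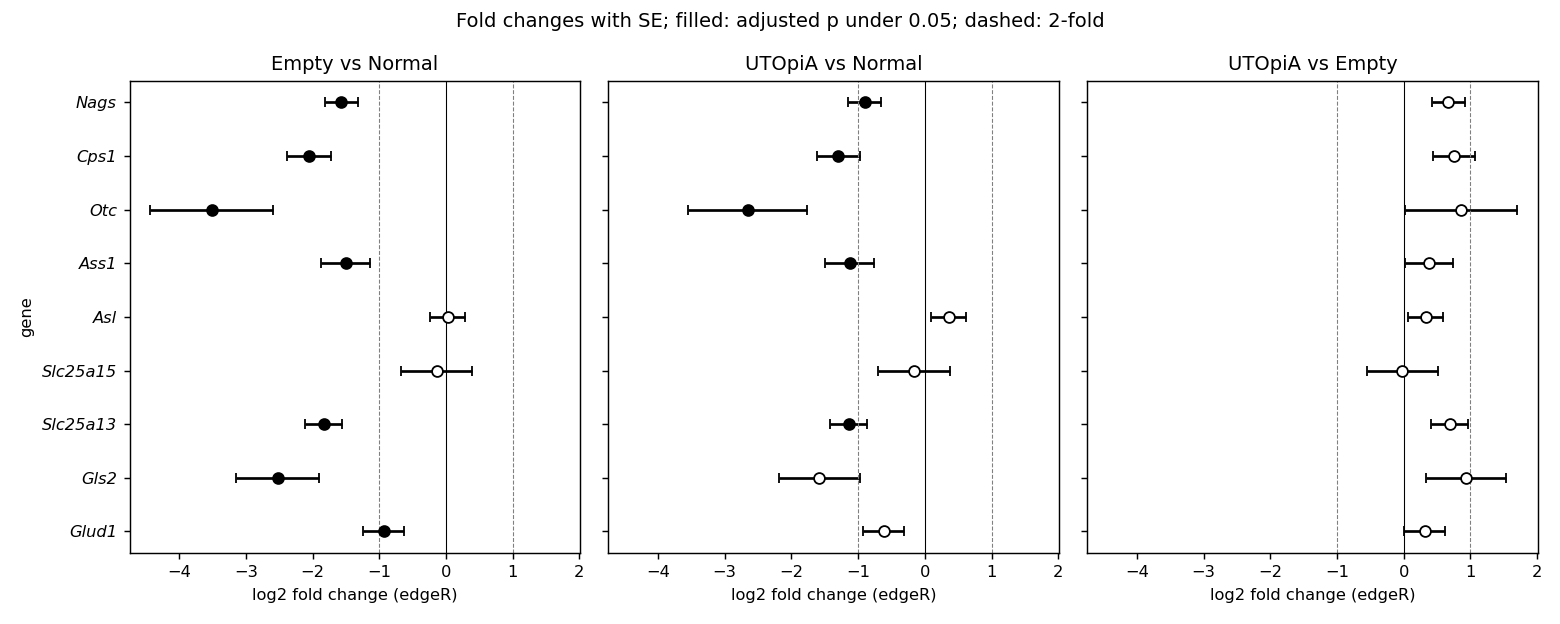
Log2 fold change with its SE (x axis, edgeR) for the 9 genes (y axis) in the 3 comparisons, with filled points at an adjusted p under 0.05 and dashed lines at 2-fold. Of the 9 genes, 7 points are filled for Empty against Normal, 5 for UTOpiA against Normal and 0 for UTOpiA against Empty.

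Nags makes N-acetylglutamate, the obligate activator of the first step. The gene lies at chr10:90085559-90089693 on the plus strand in the deposited table. Its TPM was 67.8, 65.5 and 74.1 in Normal livers, 30.1, 30.4 and 40.6 in Empty livers and 47.2, 34.6 and 51.6 in UTOpiA livers. All ACLF livers lay below all Normal livers, and the Empty and UTOpiA ranges overlapped. Nags fell by 1.57 on the log2 scale in Empty livers (SE 0.25, edgeR adjusted p = 0.00105) and fell by 0.90 in UTOpiA livers (SE 0.25, edgeR adjusted p = 0.0178), where the change passed 2-fold only without UTOpiA replicate 3 among the edgeR fits and missed the adjusted p without Normal replicate 3 (edgeR adjusted p = 0.0585).

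Cps1, which fixes ammonia as carbamoyl phosphate and commits it to the cycle, lies at chr9:74124016-74236274 on the plus strand. It was the most abundant of the 9 genes in Normal livers, with a TPM of 2455, 2447 and 2097. Its TPM was 688, 1058 and 661 in Empty livers and 1068, 1177 and 1236 in UTOpiA livers. The 3 groups did not overlap, and each UTOpiA liver lay between the Normal and the Empty livers. Cps1 fell by 2.05 (SE 0.33, edgeR adjusted p = 0.00100) and fell by 1.30 (SE 0.32, edgeR adjusted p = 0.0110) on the log2 scale against Normal livers in the Empty and UTOpiA groups.

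Otc joins carbamoyl phosphate to ornithine and is encoded on the X chromosome, at chrX:13524607-13601069 on the minus strand. It showed the lowest fold change of the 9 genes in both ACLF groups. Its TPM was 619, 675 and 628 in Normal livers, 20.7, 193 and 24.7 in Empty livers and 202, 56.5 and 109.96 in UTOpiA livers. Empty replicate 2 stood close to the highest UTOpiA liver and far above the other Empty livers. The level was 79.6 ± 98.5 TPM in Empty livers and 123 ± 73.6 TPM in UTOpiA livers (SD, n = 3), against 641 ± 29.8 TPM in Normal livers. Otc fell by 3.51 (SE 0.92, edgeR adjusted p = 0.0131) and fell by 2.66 (SE 0.89, edgeR adjusted p = 0.0423) on the log2 scale. Without Empty replicate 2 the log2 fold change in Empty livers was -5.35. The call in UTOpiA livers was lost when any 1 of the 6 Normal and UTOpiA libraries was left out, with an edgeR adjusted p of up to 0.132 over the alternatives.

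Ass1 and Asl work in succession in the cytosol: Ass1 condenses citrulline with aspartate, and Asl splits the product into arginine and fumarate. Ass1 (chr3:10327414-10375826, minus strand) had a TPM of 1662, 1890.05 and 1476 in Normal livers, 493, 1329.8 and 722 in Empty livers and 1175, 935 and 758 in UTOpiA livers. All ACLF livers lay below the Normal livers, with Empty replicate 2 the nearest to them. The log2 fold change of Ass1 was -1.50 (SE 0.37, edgeR adjusted p = 0.00792) in Empty livers and -1.13 (SE 0.36, edgeR adjusted p = 0.0331) in UTOpiA livers. The call in UTOpiA livers was lost when any 1 of the Normal livers or UTOpiA replicate 2 or 3 was left out, with an edgeR or limma adjusted p of up to 0.124 over the alternatives.

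Asl (chr12:30165694-30178341, plus strand) behaved differently from the other enzymes on the TPM scale. It stood at 238, 219 and 226 TPM in Normal livers, 245, 473 and 281 TPM in Empty livers and 403, 369.7 and 318 TPM in UTOpiA livers. Every ACLF liver lay above every Normal liver, and an exact two-sided permutation test of TPM gave p = 0.1 for each ACLF group, the smallest value that 3 livers against 3 allow. Such a position was common: all 3 livers lay above Normal in TPM for 7530 of the 14089 genes tested in Empty livers and for 5488 in UTOpiA livers. On the scale of TMM-normalised counts the log2 fold change was 0.03 (SE 0.26, edgeR adjusted p = 0.936) in Empty livers and 0.36 (SE 0.26, edgeR adjusted p = 0.299) in UTOpiA livers. The 2 scales differ because the median gene itself stood 0.57 (Empty) and 0.38 (UTOpiA) above Normal as a log2 ratio of mean TPM, so the position of Asl relative to other genes did not pass the edgeR test in either group. DESeq2 gave an adjusted p of 0.0304 for Asl in UTOpiA livers when Empty replicate 2 was left out, at a log2 fold change of 0.35.

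Of the 2 carriers, Slc25a15 exchanges ornithine and citrulline across the inner mitochondrial membrane, and Slc25a13 (citrin) exports the aspartate that Ass1 uses. Slc25a15 (chr16:74531564-74554529, plus strand) had a TPM of 177, 159 and 163 in Normal livers, 92.1, 429 and 129 in Empty livers and 223, 133 and 185 in UTOpiA livers. The Empty livers lay on both sides of the Normal range, and Empty replicate 2 alone was above all other livers. Its log2 fold change was -0.14 (SE 0.54, edgeR adjusted p = 0.850) in Empty livers and -0.16 (SE 0.54, edgeR adjusted p = 0.833) in UTOpiA livers. Without Empty replicate 2 it was -1.14 in Empty livers and passed the test.

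Slc25a13 (chr4:31608269-31730386, minus strand) had a TPM of 201, 184 and 169 in Normal livers, 96.7, 61.8 and 61.8 in Empty livers and 93.2, 94.5 and 115 in UTOpiA livers. All ACLF livers lay below the Normal livers. Here Empty replicate 2 was not the highest of its group, unlike for Otc, Ass1 and Slc25a15. Slc25a13 fell by 1.83 (SE 0.28, edgeR adjusted p = 0.000845) and fell by 1.14 (SE 0.28, edgeR adjusted p = 0.0102) on the log2 scale. Without UTOpiA replicate 2 the fall in UTOpiA livers was under 2-fold.

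Gls2, the liver-type glutaminase, releases ammonia from glutamine for the cycle, and Glud1 releases it from glutamate. Gls2 (chr7:2605719-2621852, plus strand) had a TPM of 154, 134 and 128 in Normal livers, 17.7, 67.2 and 18.4 in Empty livers and 99.9, 32.1 and 39.6 in UTOpiA livers. All ACLF livers lay below the Normal livers, spread over a wide range. Gls2 fell by 2.52 on the log2 scale in Empty livers (SE 0.63, edgeR adjusted p = 0.0101), where the log2 fold change without Empty replicate 2 was -3.48. In UTOpiA livers its log2 fold change was -1.58 (SE 0.61, edgeR adjusted p = 0.0663), and the call depended on the fit. With edgeR it was called from only the 6 libraries compared (adjusted p = 0.021) and when Empty replicate 2 or UTOpiA replicate 1 was left out, with a log2 fold change of -2.20 in the latter case. DESeq2 called it with all libraries (adjusted p = 0.0127) and not without UTOpiA replicate 2 (adjusted p = 0.0687).

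Glud1 (chr16:10662021-10695557, plus strand) had a TPM of 506, 494 and 395 in Normal livers, 297, 449 and 299 in Empty livers and 430.1, 288 and 381 in UTOpiA livers. Both ACLF groups overlapped the Normal range on this scale. Glud1 fell by 0.93 on the log2 scale in Empty livers (SE 0.30, edgeR adjusted p = 0.0300), less than 2-fold. It passed 2-fold without Empty replicate 2 or Normal replicate 3, and missed the adjusted p without Empty replicate 1 or 3 or Normal replicate 1 or 2. With the replicate block the edgeR adjusted p was 0.067, and with limma on TPM the log2 fold change was -0.435 and -0.436, with an adjusted p of 0.135 to 0.172. In UTOpiA livers the log2 fold change was -0.62 (SE 0.30, edgeR adjusted p = 0.132). On the TPM scale, all 3 livers lay below Normal for 6 of the 9 genes in Empty livers, against 12.8% of all genes, and for 6 of 9 in UTOpiA livers, against 13.4%.

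The order of the levels also differed between the groups, compared per length as TPM. In Normal livers Cps1 (2333 ± 204 TPM, SD, n = 3) stood above Ass1, Otc, Glud1 and Asl in that order, and none of these overlapped its neighbours. Slc25a13 and Slc25a15 came next and overlapped, followed by Gls2 and Nags. In Empty livers Ass1 (848 ± 432 TPM) and Cps1 (802 ± 222 TPM) overlapped at the top, and Otc was the sixth, overlapping both its neighbours. In UTOpiA livers Cps1 and Ass1 likewise overlapped at the top and Otc was again the sixth. The 5 enzymes together summed to 4501 to 5297 TPM in Normal, 1477 to 3085 TPM in Empty and 2474 to 2895 TPM in UTOpiA livers.

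Ratios within a liver do not depend on how libraries are scaled to one another, and 8 of them were computed after the values had been seen. The log2 ratio of Asl to Cps1 TPM was -3.35 ± 0.14 in Normal, -1.30 ± 0.17 in Empty and -1.68 ± 0.28 in UTOpiA livers (SD, n = 3). The ACLF livers did not overlap the Normal livers. For Asl to Ass1 the log2 ratio was -2.87 ± 0.21, -1.29 ± 0.25 and -1.38 ± 0.15, again without overlap. Relative to Cps1 and to Ass1, Asl was thus higher in every ACLF liver than in any Normal liver. The log2 ratio of Cps1 to Otc was 1.86 ± 0.12, 4.08 ± 1.42 and 3.42 ± 0.99, and that of Gls2 to Glud1 was -1.74 ± 0.13, -3.61 ± 0.75 and -2.85 ± 0.64. An exact two-sided permutation test gave p = 0.1 for each of these 4 ratios against Normal in both ACLF groups, the smallest value possible. The log2 ratio of Slc25a15 to Slc25a13 was -0.14 ± 0.09, 1.26 ± 1.44 and 0.81 ± 0.40. It overlapped the Normal range in Empty livers (exact permutation p = 0.2) and lay above it in UTOpiA livers (exact permutation p = 0.1). Between UTOpiA and Empty livers all 5 overlapped. Relative to Alb, Cps1 was higher in ACLF livers, at a log2 ratio of -5.68 ± 0.21 in Normal, -4.53 ± 0.40 in Empty and -4.24 ± 0.69 in UTOpiA livers. So was Asl, at -9.03 ± 0.11, -5.83 ± 0.32 and -5.92 ± 0.68, whereas the ratio of Otc to Alb overlapped between the groups. Alb itself had an edgeR log2 fold change of -3.08 in Empty and -2.61 in UTOpiA livers, so any gene that fell by less rises against it.

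**Figure D3:**
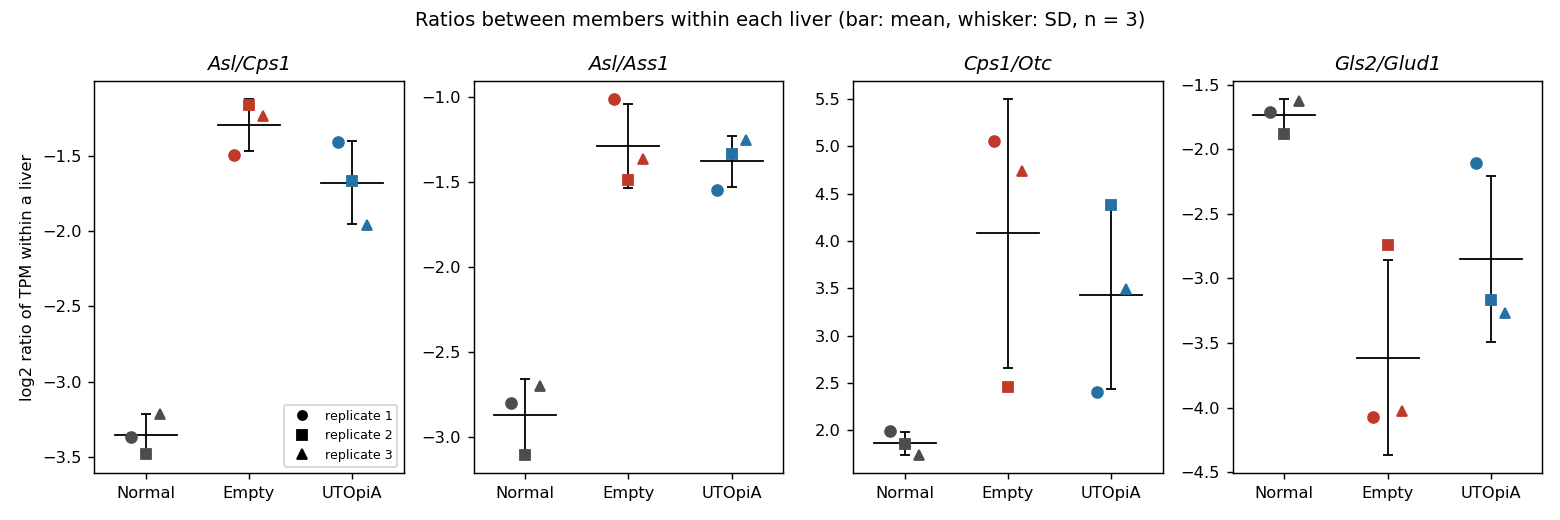
Log2 ratio of the TPM of 2 genes within each liver (y axis, not starting at 0) by group (x axis), with the mean and SD of 3 livers. The Asl to Cps1 ratio lies at -3.48 to -3.21 in Normal livers and at -1.96 to -1.16 in the 6 ACLF livers.

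Whether the treated livers differed from those with the empty circuit was asked by comparing UTOpiA with Empty directly. None of the 9 genes passed the test, and edgeR called 0% of all genes tested as higher, the lowest adjusted p being 0.170. On the same libraries DESeq2 called 53 genes higher and 71 lower, none of them among the 9, so the count over all genes depends on the tool. The log2 fold change was above 0 for 8 of the 9 genes, against 50.2% of all genes, with a median of 0.67 against 0.00 for all genes. At an unadjusted p under 0.05, 3 of the 9 were higher (Nags, Cps1 and Slc25a13), against 5.77% of all genes. That count was 0 from only the 6 libraries compared, where 489 of 13947 genes tested were higher at that p. The TPM of all 3 UTOpiA livers lay above all Empty livers for 1 of the 9 genes, Cps1, against 2.43% of all genes.

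The differences were 0.67 for Nags (SE 0.25, edgeR adjusted p = 0.432), 0.76 for Cps1 (SE 0.32, edgeR adjusted p = 0.455) and 0.69 for Slc25a13 (SE 0.27, edgeR adjusted p = 0.448) as log2 fold changes. Gls2 had the largest difference, at 0.94, and also one of the largest errors (SE 0.60, edgeR adjusted p = 0.625). For Otc the difference was 0.86 (SE 0.84, edgeR adjusted p = 0.759). Those of Ass1, Asl and Glud1 were 0.37, 0.33 and 0.31, and that of Slc25a15 was -0.02. Within 2 SE, the differences of Otc, Ass1, Gls2 and Slc25a15 reach from below 0 to above 2-fold, and that of Slc25a15 includes a 2-fold fall. For these genes neither direction nor size was resolved with 3 livers a group. With DESeq2, which called 0.376% of all genes higher, 3 of the 9 were higher at an unadjusted p under 0.05, against 6.05% of all genes.

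Single libraries moved this comparison in both directions. With edgeR the median of the 9 genes was 0.33 when UTOpiA replicate 1 was left out and 0.39 when UTOpiA replicate 3 was. Of the 9, 2 and 0 were then higher at an unadjusted p under 0.05, against 467 of 14439 and 542 of 14468 genes tested. The median was 0.41 and 0.42 when Empty replicate 1 or 3 was left out. In each case 1 of the 9 was higher at that p, against 793 of 14406 and 512 of 14295 genes. Without UTOpiA replicate 2 the median was 0.86 and 3 of the 9 were higher at that p, against 1395 of 14335 genes. With DESeq2 and without Empty replicate 2, Otc and Gls2 were called higher, against 2.43% of all genes, and 6 of the 9 had an adjusted p under 0.05, against 3.69%. edgeR without that library called none of the 9 and 0.181% of all genes as higher. At an unadjusted p under 0.05 it had 6 of the 9 higher, against 9.51%, with a median of 0.88, and its log2 fold change was 2.70 for Otc and 1.89 for Gls2. That of Gls2 was 0.325 without UTOpiA replicate 1. With DESeq2 and without UTOpiA replicate 2, Nags (adjusted p = 0.00213) and Cps1 (adjusted p = 0.0475) passed the adjusted p below 2-fold, against 3.36% of all genes. Without Empty replicate 1, DESeq2 gave an adjusted p of 0.033 for Slc25a13, also below 2-fold, against 0.826% of all genes.

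**Figure D4:**
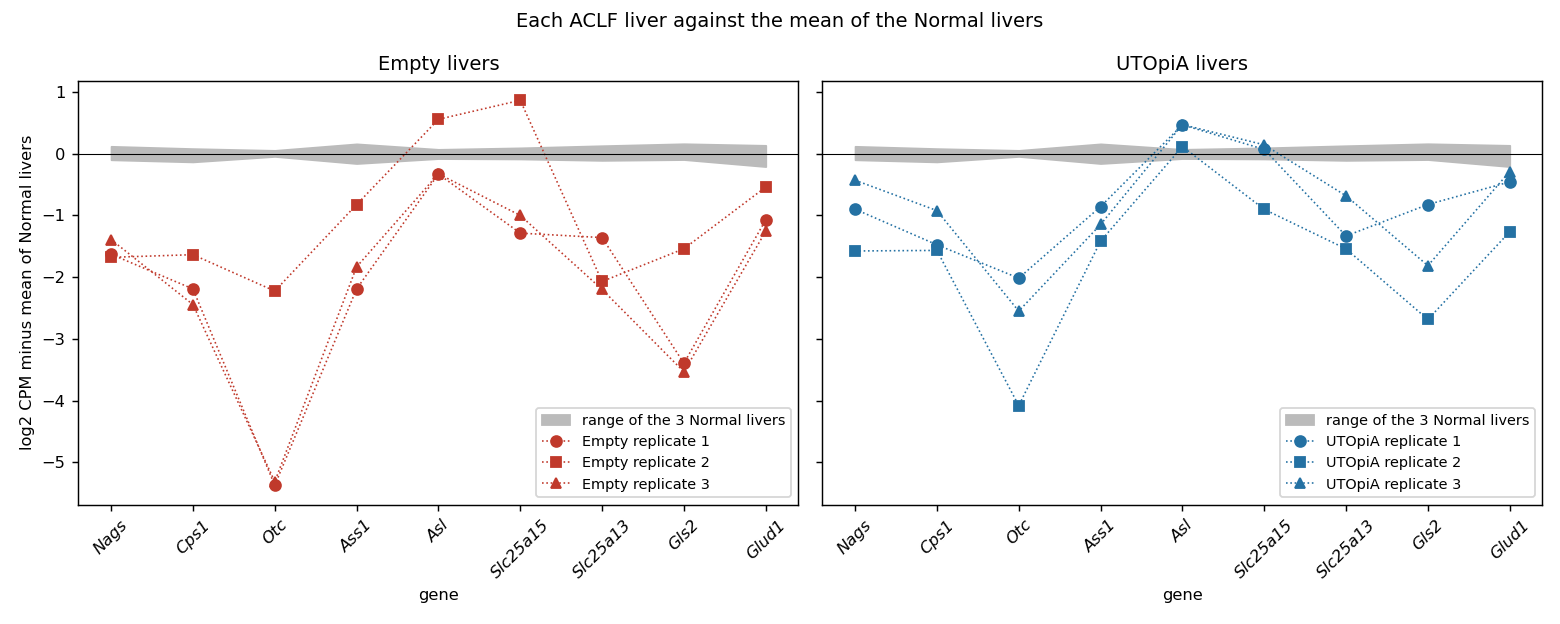
Log2 CPM (counts scaled by TMM-normalised library size) of the 9 genes minus the mean of the Normal livers (y axis) for each Empty liver (left) and UTOpiA liver (right), with the range of the Normal livers in grey. Otc lies at -5.37 and -5.31 in Empty replicates 1 and 3, at -2.23 in Empty replicate 2 and at -4.08 in UTOpiA replicate 2.

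The spread between livers was wide for some genes and narrow for others. The SD of log2 CPM of Otc was 0.05 in Normal livers, 1.80 in Empty livers and 1.07 in UTOpiA livers, where the median over all genes tested was 0.19, 0.29 and 0.30. Slc25a15 and Gls2 also varied, with an SD of 1.17 and 1.11 in Empty livers, while that of Nags was 0.15. In each liver the median of the 9 genes against the Normal mean was -1.63, -1.54 and -1.83 in Empty replicates 1 to 3 and -0.86, -1.54 and -0.68 in UTOpiA replicates 1 to 3, as differences in log2 CPM. Thus Empty replicate 2 was the highest of its group and UTOpiA replicate 2 the lowest of its own, and the groups met at these 2 livers.

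For 6 of the 9 genes (Otc, Ass1, Asl, Slc25a15, Gls2 and Glud1), the 3 highest log2 CPM among the 6 ACLF livers were those of Empty replicate 2 and UTOpiA replicates 1 and 3. Among all genes tested 11.4% had this order, which was noticed after the values were seen. Nags, Cps1 and Slc25a13 did not have it. In these 3 libraries Alb took 3.91%, 3.59% and 3.31% of the counts, and in the other ACLF libraries 1.54% to 1.65%. The summed neutrophil markers stood at 201, 391 and 178 TPM in the same 3 livers and at 512 to 1112 TPM in the others. Some other marker sums separated the same livers. Stellate cell and fibroblast markers stood at 855, 671 and 449 TPM against 959 to 1054 TPM. Endothelial markers stood at 109, 73.5 and 76.5 TPM against 40.9 to 54.7 TPM, and hepatocyte markers at 106700, 114600 and 125200 TPM against 87020 to 104400 TPM. The cholangiocyte, macrophage, T and B cell and erythroid sums did not separate them. Single markers did not all follow their sum. Of the stellate cell and fibroblast markers, Dcn, Des and Pdgfrb were lower in these livers and Lrat was higher, while Col3a1, Col1a1 and Acta2 overlapped with the others. By zone, the pericentral markers stood at 2896, 3211 and 2242 TPM in these livers against 1194 to 1805 TPM in the others, while the periportal markers, at 3788, 4013 and 2391 TPM against 2516 to 2740 TPM, did not separate them. What part these differences had in the levels of the 6 genes was not tested.

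In RefSeq (build GRCr8), all 9 genes had a promoter sequence. The 250 bases before the start are shown for Cps1, the most abundant gene and the only one with a match to the HNF4 half-element searched, for Otc, which had the lowest fold changes, and for Asl, which lay above Normal in TPM in every ACLF liver and did not pass the test on counts. Capitals mark the match.
Cps1 (GRCr8, chr9:76063613-76063862, plus strand): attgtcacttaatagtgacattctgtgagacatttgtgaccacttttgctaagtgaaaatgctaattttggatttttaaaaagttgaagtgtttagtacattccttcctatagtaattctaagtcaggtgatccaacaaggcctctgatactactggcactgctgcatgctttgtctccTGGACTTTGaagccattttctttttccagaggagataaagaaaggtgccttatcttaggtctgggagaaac
Otc (GRCr8, chrX:15202474-15202723, minus strand): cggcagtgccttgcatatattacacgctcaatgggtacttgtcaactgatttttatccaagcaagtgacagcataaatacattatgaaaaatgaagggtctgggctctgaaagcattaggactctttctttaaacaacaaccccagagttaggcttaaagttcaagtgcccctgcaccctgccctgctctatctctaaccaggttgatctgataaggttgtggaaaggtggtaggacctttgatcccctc
Asl (GRCr8, chr12:32295658-32295907, plus strand): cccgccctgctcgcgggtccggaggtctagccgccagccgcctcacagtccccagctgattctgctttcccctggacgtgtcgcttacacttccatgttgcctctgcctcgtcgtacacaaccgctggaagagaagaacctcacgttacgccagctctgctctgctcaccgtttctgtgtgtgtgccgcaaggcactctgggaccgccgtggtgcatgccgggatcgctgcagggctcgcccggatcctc
HNF4 is a nuclear receptor that maintains the hepatocyte programme. The letters searched for its half-element were CAAAGTCCA on both strands, which Cps1 holds on the minus strand as TGGACTTTG, from 71 to 63 bases before the start, and which 0.391% of 33469 promoters of the same length hold. Its own transcript, Hnf4a, was lower in Empty livers (log2 fold change -1.22, edgeR adjusted p = 0.00511). The letters TATAAA of the TATA box were found in Ass1 on the minus strand only, from 60 to 55 bases before the start (14.2% of all promoters). The letters CCAAT of the CCAAT box were found in Slc25a15, Slc25a13 and Gls2 (37.5%). For Gls2 they lay in the promoter at chr7:1201629-1201878 and not in the other at chr7:1206874-1207123. None of the 9 held the letters TTGCNNCAA of the C/EBP palindrome (2.17% of all), TGACGTCA of the full cyclic AMP response element (1.83%) or TGTTCT of the glucocorticoid receptor half-element (20.7%). No match overlapped another, and a match or its absence in this window does not show whether a factor binds.

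The genes around the cycle were followed in 6 lists. For the 2 carriers a related carrier was tested, and for Cps1 the cytosolic enzyme Cad, which makes carbamoyl phosphate for pyrimidines. Slc25a12, the partner of Slc25a13, had a log2 fold change of -0.44 (edgeR adjusted p = 0.157) in Empty livers and fell by 0.71 (edgeR adjusted p = 0.0428) in UTOpiA livers. Slc25a2, the second ornithine carrier, stayed at or below 1.69 TPM and did not pass the test. Cad fell by 0.64 (edgeR adjusted p = 0.0131) and fell by 0.77 (edgeR adjusted p = 0.00784) on the log2 scale.

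Among 10 tested genes of glutamine synthesis and ammonium transport, 4 were called higher and none lower in Empty livers, against 20.7% higher and 11.1% lower over all genes tested. The median log2 fold change of the list was 0.41. The 4 most abundant were Slc38a3, Glul, Slc38a4 and Aqp8. Slc38a3, a glutamine transporter of periportal cells, fell by 0.89 on the log2 scale (edgeR adjusted p = 0.0259). Glul, the glutamine synthetase of the cells around the central vein, rose by 0.90 on the log2 scale (edgeR adjusted p = 0.0126), from 152 to 188 TPM in Normal livers to 380.4 to 485 TPM in Empty livers. In UTOpiA livers Glul stood at 165 to 378 TPM, with a log2 fold change of 0.40 (edgeR adjusted p = 0.211). Slc38a4, an amino acid transporter, had a log2 fold change of -0.55 (edgeR adjusted p = 0.105), and Aqp8, a water and ammonia channel, fell by 0.72 (edgeR adjusted p = 0.0201). The 4 genes called were Slc1a2, Slc1a5, Slc38a1 and Slc38a2, and all of these but Slc38a2, 3 of the 10 tested genes of the list, were called higher in UTOpiA livers, against 18.2% of all genes.

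Of 12 tested genes of urea, arginine and ornithine transport, 2 were called higher (Slc7a1 and Slc7a7) and 4 lower (Aqp9, Slc25a10, Slc7a2 and Slc25a11) in Empty livers, with a median log2 fold change of 0.17. The share higher lay near that over all genes (20.7%), of which 11.1% were lower. Those 4 lower genes were also the most abundant of the list. Aqp9, a channel for urea and glycerol, fell by 1.15 on the log2 scale in Empty livers (edgeR adjusted p = 0.00596), while in UTOpiA livers its log2 fold change was -0.25 (edgeR adjusted p = 0.471). Slc25a11, the mitochondrial oxoglutarate carrier, fell by 1.32 (edgeR adjusted p = 8.93e-05) and fell by 1.08 (edgeR adjusted p = 0.000312). Slc25a10, the dicarboxylate carrier, fell by 1.20 (edgeR adjusted p = 0.0285) and Slc7a2, which takes up arginine, fell by 1.08 (edgeR adjusted p = 0.00226) in Empty livers. In UTOpiA livers 2 of the list were called higher and 1 lower, where 18.2% and 6.81% of all genes were.

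Of 4 tested genes of bicarbonate supply and Cps1 deacylation, 2 were called lower in Empty livers (11.1% of all genes) and 0 in UTOpiA livers (6.81%). Ca5a, the mitochondrial carbonic anhydrase that supplies bicarbonate to Cps1, fell by 1.77 on the log2 scale in Empty livers (SE 0.34, edgeR adjusted p = 0.00285), and its log2 fold change in UTOpiA livers was -0.72 (edgeR adjusted p = 0.113). Sirt5, which removes acyl groups from Cps1, fell by 1.01 (edgeR adjusted p = 0.000733) and fell by 0.83 (edgeR adjusted p = 0.00258). Sirt3, a mitochondrial deacetylase, fell by 0.93 in Empty livers (edgeR adjusted p = 0.0437). Its TPM was 39.5, 13.97 and 40.6 in Empty livers and 41.0 to 42.3 in Normal livers, so that Empty replicate 2 alone stood far below. Ca5b had a log2 fold change of -0.05 (edgeR adjusted p = 0.934).

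Of 18 tested genes in the side branches of arginine and ornithine, 3 were called higher (Ddah2, Azin2 and Nos2) and 5 lower (Oat, Agmat, Prodh2, Pycr3 and Pycr1) in Empty livers, with a median log2 fold change of -0.45. Over all genes 20.7% were higher and 11.1% lower. Oat, which turns ornithine toward glutamate, fell by 1.76 (edgeR adjusted p = 0.00273) and fell by 1.54 (edgeR adjusted p = 0.00698) on the log2 scale in the Empty and UTOpiA groups. Nos2, the inducible nitric oxide synthase, had 0 counts in all 3 Normal libraries, 55, 116 and 57 counts in Empty livers and 3, 6 and 0 counts in UTOpiA livers. Against a floor of 3 counts per Normal library, Nos2 was at least 15.7-fold higher in Empty livers, and the median of the list was again -0.45 with Nos2 at this bound. Oaz1 and Ddah1, also among the most abundant, did not pass the test (log2 fold change -0.09 and -0.27), and Agmat fell by 1.23 (edgeR adjusted p = 0.00463) in Empty livers.

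Of 20 transaminases and ammonia-releasing enzymes, 4 were called higher and 9 lower in Empty livers, with a median log2 fold change of -1.42, and 3 higher and 9 lower in UTOpiA livers, with a median of -0.85. The shares higher lay near those over all genes (20.7% and 18.2%), where 11.1% and 6.81% were lower. Got2, the mitochondrial aspartate aminotransferase, fell by 1.47 (edgeR adjusted p = 0.000721) and fell by 1.34 (edgeR adjusted p = 0.00161) on the log2 scale, whereas the cytosolic Got1 rose by 1.31 (edgeR adjusted p = 0.0164) and by 1.14 (edgeR adjusted p = 0.0350). Nit2, an omega-amidase, fell by 1.79 (edgeR adjusted p = 0.000891) and fell by 1.01 (edgeR adjusted p = 0.0163). Tat, the tyrosine aminotransferase, had a log2 fold change of -0.04 (edgeR adjusted p = 0.934) in Empty livers. Hal, the histidine ammonia-lyase, was named after its values were seen as the lowest of the list in both ACLF groups, where it fell by 3.74 (edgeR adjusted p = 0.000245) and fell by 2.05 (edgeR adjusted p = 0.00376).

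Of 14 transcriptional regulators linked to urea cycle genes, 7 were called lower in Empty livers (Cebpa, Hnf4a, Gcgr, Klf15, Nr1h4, Foxa2 and Ppara) and none higher, against 11.1% and 20.7% of all genes. Their median log2 fold change was -1.02. In UTOpiA livers 2 were called lower (Nr1h4 and Ppara), against 6.81% of all genes, with a median of -0.52. Cebpa, a factor of hepatocyte maturity, fell by 1.69 (edgeR adjusted p = 0.00226) and, below the fold threshold, fell by 0.97 (edgeR adjusted p = 0.0335). Hnf4a had a log2 fold change of -0.74 (edgeR adjusted p = 0.0524) in UTOpiA livers. Creb3l3 fell by 0.66 in Empty livers (edgeR adjusted p = 0.0484), and Cebpb, which serves the acute-phase response, had a log2 fold change of 0.24 (edgeR adjusted p = 0.579). No gene of the 6 lists was called between UTOpiA and Empty livers, where the median log2 fold change was 0.41 for the regulators, 0.44 for the transaminases and ammonia-releasing enzymes and -0.25 for glutamine synthesis and ammonium transport.

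**Figure D5:**
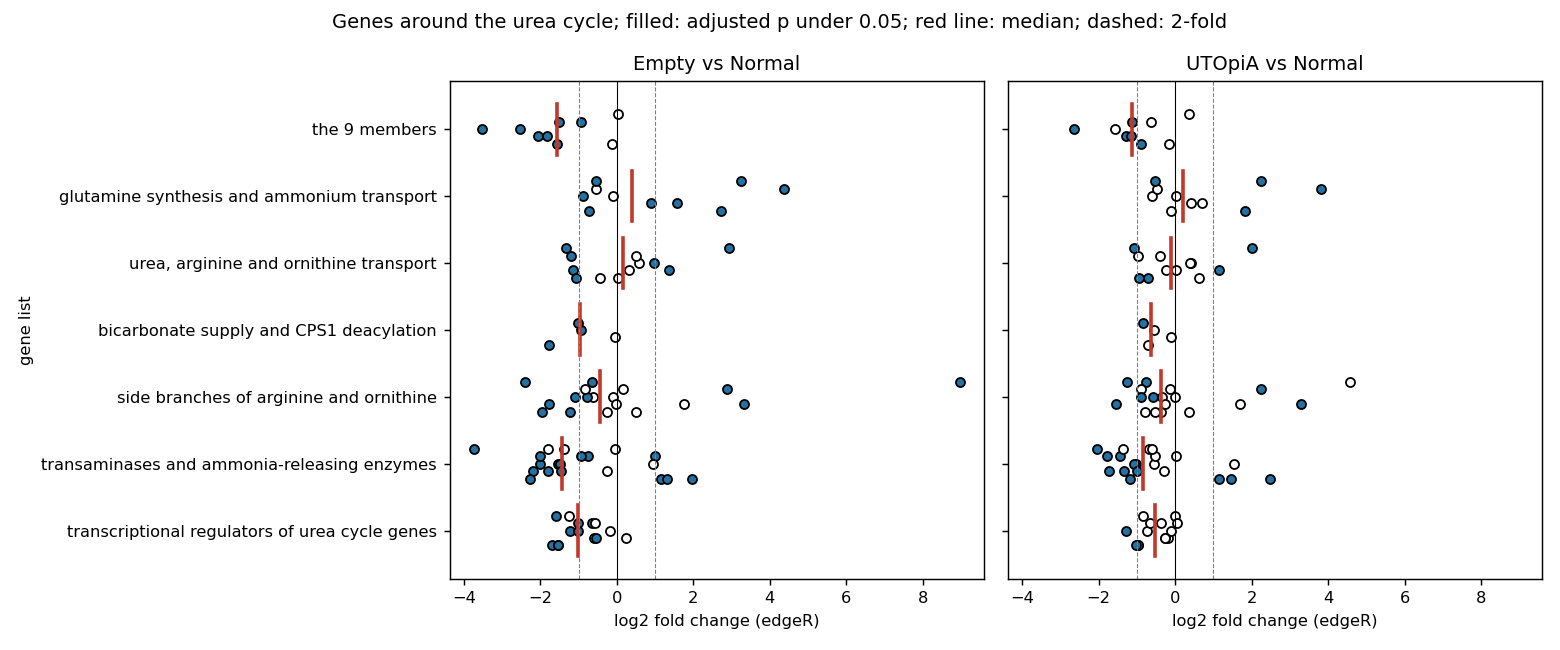
Log2 fold change (x axis, edgeR) of each tested gene in the 6 lists and of the 9 urea cycle and ammonia genes (y axis), for Empty and UTOpiA against Normal, with filled points at an adjusted p under 0.05, red lines at the medians and dashed lines at 2-fold. The rightmost point of each panel for the side branches is Nos2, whose fitted value is not a bound because its Normal counts are 0.

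By zone, the periportal markers listed were called lower for 6 of 10 and higher for 1 (Pck1) in Empty livers, with a median log2 fold change of -1.86. This list holds Gls2 itself, and Sds and Hal are in the ammonia-releasing list too. The pericentral markers were called lower for 3 of 9 and higher for 1 (Slc1a2), with a median of -0.09, where 11.1% of all genes were lower and 20.7% higher. Of the pericentral markers, Glul, Oat, Slc1a2 and Rhbg are shared with the lists above.

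The genes most like the mean of the 5 enzymes (log2 CPM) over the 6 ACLF livers were Rpp21, Bbox1, Snx24, Cog4, RGD1310127, Sult2a1, Trap1, AABR07035338.1, Igfals and Sult1b1, with Pearson's r from 0.991 to 0.999. Over all 9 livers they were Iyd, Ttc39c, RGD1564865, Ptprd, Macrod1, Cyp2c13, Nipsnap3b, Pan2, Itga7 and Ugt2a3, with r from 0.990 to 0.995. Of the members, Otc had an r of 0.980 with this mean over the ACLF livers and Slc25a13 one of 0.444, and Asl had 0.976 over the ACLF livers but 0.314 over all 9. These values describe a few livers, in which the genes share libraries and depth, and each enzyme is part of the mean it is set against.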

How the data were processed

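Bulk liver RNA-seq of 9 rats was analysed, with libraries grouped as Normal, Empty or UTOpiA by their sample labels. The study's methods name Cutadapt for trimming and the mouse build GRCm38, whereas the submitters' processing notes name Trimmomatic and the rat build rn6; both name HISAT2 and featureCounts. The kits named in the methods and labels also differ. Positions are given as in the deposited tables, whose rat gene positions carry no build name. The authors deposited raw counts per gene, of uniquely mapped reads, and TPM, which they scaled by gene length and library. Whether counting used strand is not given in the sources used here, so overlapping genes could share reads.

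From the counts, genes were kept by filterByExpr, normalised by TMM and fitted with edgeR 4.0.16 in R 4.3.3 over all 9 libraries with the robust quasi-likelihood test, two-sided, and Benjamini-Hochberg adjustment over the 14089 genes tested. A gene was called at an adjusted p under 0.05 and a change above 2-fold. Log2 CPM used a prior count of 2. TPM and ratios were compared by exact two-sided permutation tests with scipy 1.17.1. The scripts were tested on simulated counts. Libraries of 14241172 to 17321677 counts set the counting error, and 3 livers per group the precision of each fold change.

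The alternatives were DESeq2 1.42.0, median-of-ratios scaling, other filters on counts (none, or at least 10 in every library), limma 3.58.1 on log2(TPM + 1) or log2(TPM + 0.1), for genes with mean TPM from 1 upward or for all, no fold threshold, only the 6 libraries compared, the replicate number as a block and each library left out. DESeq2 without each ACLF library, and the ratios, were added after the values were seen. The members and lists were chosen with earlier results of these data known. Of the 10 members 9 are given, and 1 member and 1 gene of a list are not reported here. Of each list the 4 tested genes with the highest mean TPM and the related carriers and Cad were named, beside genes counted as called. Likeness was ranked by Pearson's r outside the lists, with no test. Promoters came from RefSeq. Protein sequences were not used here.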

Additional observations from a re-analysis of the deposited data

How the results depend on the processing

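For Empty against Normal, the number of the 9 genes called lower stayed within 1.5 times of 6 under the edgeR and limma alternatives, and leaving out each library in turn with edgeR gave 6 to 8. With DESeq2 and without any one UTOpiA library, Otc had no adjusted p in that comparison. For UTOpiA against Normal the 4 genes called lower became 2 with limma on log2(TPM + 1) and on log2(TPM + 0.1), 1 with limma and no filter, and 2 with DESeq2 without UTOpiA replicate 2, where Otc had no adjusted p. The share of all genes called lower, 6.81% with all libraries in edgeR, was 3.63%, 3.94%, 2.33% and 6.12% in these fits. Leaving out each library in turn with edgeR gave 1 to 5, the lowest value without UTOpiA replicate 2 and 2 without any one of the Normal livers, with 5.06% and 5.70% to 5.91% of all genes. In these cases the cause was not tested. In the UTOpiA group the call of Otc was lost in 9 of the 18 alternatives that gave it an adjusted p, that of Ass1 in 9 of 21 and that of Slc25a13 in 5 of 21, whereas Cps1 kept its call in all 21. For UTOpiA against Empty, 0 genes became 2 called higher with DESeq2 without Empty replicate 2, and 0 was the count under every edgeR and limma alternative.

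No pairing by replicate number was seen. The correlations of same-numbered samples ran from -0.183 to 0.0638, and those of differently numbered samples from -0.186 to 0.288. They were taken on deviations from means of 3 livers, which are tied to one another, so they cannot decide whether livers were paired. With the replicate block 2 genes (Cps1 and Slc25a13) were called lower for UTOpiA against Normal, where 6.37% of all genes were, against 6.81% without the block. Without the fold threshold 3 of the 9 were lower with the block (Nags in addition) against 5 without it. Of the 14089 genes tested, 2030 were lower by that rule with the block and 2285 without it. No other count of called genes among the 9 moved by over 1.5 times with the block.

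Asl and Slc25a15, both near 0, changed direction under some alternatives. Asl in the Empty group (log2 fold change against Normal) ran from -0.333 to 0.178 with each library left out, and was -0.314 with DESeq2 without Empty replicate 2. Slc25a15 in the Empty group was 0.0471 and 0.0459 with limma on TPM (pseudocounts of 1 and 0.1) and 0.0471 with no filter, ran from -1.14 to 0.210 with each library left out, and was 0.225 and 0.167 with DESeq2 without Empty replicates 1 and 3. In the UTOpiA group against Normal it was 0.0852, 0.0855 and 0.0852 with limma, ran from -0.341 to 0.106 with each library left out, and was 0.0893 with DESeq2 without UTOpiA replicate 2. For UTOpiA against Empty, Slc25a15 was 0.0380, 0.0396 and 0.0380 with limma and 0.182 with the replicate block, ran from -0.371 to 0.982 with each library left out, and was 0.950 and 0.214 with DESeq2 without Empty replicate 2 and UTOpiA replicate 2.

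The counts of these genes, from 354 upward, leave a counting error that is small beside the spread between ACLF livers. That spread was widest for Otc, Gls2 and Slc25a15 in both ACLF groups, whereas in Normal livers it was widest for Glud1 and narrowest for Otc.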
